A study of Saccharomyces cerevisiae with 7 samples.

Results

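The cytosolic ribosomal protein genes of budding yeast, Saccharomyces cerevisiae, were taken as every probe set whose platform gene symbol is RPL or RPS with a number and an optional A or B, together with the acidic stalk proteins RPP0, RPP1A, RPP1B, RPP2A and RPP2B. This gave 147 of the 5498 named probe sets, or 127 of 5449 genes, of which 75 belong to the large (60S) and 52 to the small (40S) subunit. RefSeq lists 137 such genes; the other 10 were not analysed here. Total RNA was measured on Affymetrix Yeast Genome 2.0 arrays, 1 array per biological replicate, in 4 wild-type cultures and 3 cultures without HMT1, which encodes the enzyme that places most methyl groups on arginines in yeast proteins. The wild type was BY4741, a haploid of mating type MATa with the auxotrophic alleles his3∆1 and leu2∆0 as well as met15∆0 and ura3∆0. The deletion strain, hmt1∆::KANMX4, was made in BY4741 and so carries the same alleles and, in addition, the drug marker. The labels name rich, phosphate-replete and phosphate-depleted media and do not tie these cultures to any of them. Values are log2 expression normalized over all 7 arrays, and differences are deletion minus wild type on that scale.

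Ribosomal protein genes make up a large block of coordinately transcribed genes in growing yeast. The general regulator Rap1 marks their promoters, Fhl1 with its coactivator Ifh1 and the factor Sfp1 carry growth signals from TOR and protein kinase A to them, and stress lowers their transcription. Most of the proteins are encoded by A and B paralogs, kept from an ancient genome duplication, whose products are identical or nearly so; only some are single-copy. Hmt1 meets the ribosome as an enzyme, since Rps2 is among its substrates, and other methyltransferases modify Rps3, Rpl1, Rpl3, Rpl12, Rpl23 and Rpl42.

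The deleted gene checked the labels. HMT1 read 12.10, 11.76, 11.58 and 11.90 in wild-type replicates 1 to 4 and 5.03, 4.50 and 4.77 in deletion replicates 1 to 3, a difference of -7.07 (SE 0.15, limma adjusted p = 4.89e-07) with no overlap. Pheromone genes checked the mating type. MFA2, which encodes a-factor, averaged 12.85 in the wild type, while MF(ALPHA)1, which encodes the pheromone of the opposite mating type, read 3.95 to 4.12 there and 4.11 to 4.14 in the deletion. The 7 genes specific to MATa had a median level of 12.21, and the 4 specific to the opposite type 6.41. Some were closer: SAG1, of the opposite type, averaged 9.01 in the wild type. ASG7, specific to MATa, read 8.19, 10.17, 8.52 and 10.01 in wild-type replicates 1 to 4. Wild-type replicates 1 and 3 stood apart from the other 5 arrays in the 5 J01347 reporter probe sets, which read 3.18 to 4.44 there and 6.16 to 12.59 elsewhere. Counts without overlap, the median difference over members and RPL22B are therefore also given against wild-type replicates 2 and 4 or 1 and 3 alone. For other results this split is not shown, and their values may differ between these arrays.

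No ribosomal protein gene passed the test between the strains. Of the 147 probe sets, 0 rose and 0 fell at a limma adjusted p under 0.05, against 0.2% of all named probe sets (0.0909% higher and 0.109% lower). At an unadjusted p under 0.05 there was 1 (RPL22B), where all named probe sets gave 6.64%, and an ordinary unmoderated test also called 0. The median difference was 0.0070 over the ribosomal protein probe sets and 0.0065 over all named probe sets. In RNA from whole cultures, fewer cells that express a gene and less of its RNA per cell cannot be told apart. Differences ran from -0.22 for RPL22B to 0.08 for RPS25A, and 145 of 147 lay within 0.1 of 0. In 93 probe sets (63.3%) the deletion mean was the higher, against 52.5% of all named probe sets. This count depended on single arrays: it was 54 without wild-type replicate 3 and 53 without deletion replicate 2.

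The precision of each fitted difference is given by its interval, before any adjustment for the number of probe sets. The smallest difference that the adjusted test could call is not given by it. The RPL22B interval ran from -0.42 to -0.0071, yet its limma adjusted p was 0.742. The fit also shares the spread over all named probe sets, so a width does not rest on a single probe set alone. The 95% interval of the fitted difference had a median half-width of 0.13, from 0.11 for the tightest to 0.48 for the widest probe set. It lay inside ±0.25 for 130 of the 147 and inside ±0.5 for 146. The groups separated without overlap in 1 probe set, RPL22B, with the deletion arrays below, while 7.64% of all named probe sets separated (3.15% with the deletion above and 4.49% below). This count also moved with the arrays used: without wild-type replicate 1 it was 16, without wild-type replicate 3 it was 2, without wild-type replicate 4 it was 7, and without deletion replicates 1 or 2 it was 4 and 13. Over all named probe sets the corresponding shares were 11.8%, 19.7%, 10.2%, 10.9% and 15%. Against wild-type replicates 2 and 4 alone 20 members separated (35.8% of all), and against 1 and 3 alone 7 (19.1% of all).

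The genes are among the brightest on the array, which bears on these values. Of the 147 probe sets, 131 were in the brightest 5% of named probe sets, the median level was 13.74, and the highest value on any array was 14.63. The spread between wild-type arrays narrowed with brightness. The median SD over the 4 wild-type arrays was 0.15 for the 15 probe sets under 13, 0.046 for the 100 from 13 to 14 and 0.028 for the 32 at 14 and over. Median absolute strain differences were 0.032, 0.013 and 0.0099 in the same 3 classes. Brightness thus moved with the spread and with the size of the difference, and its part in these results was not tested.

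**Figure D1:**
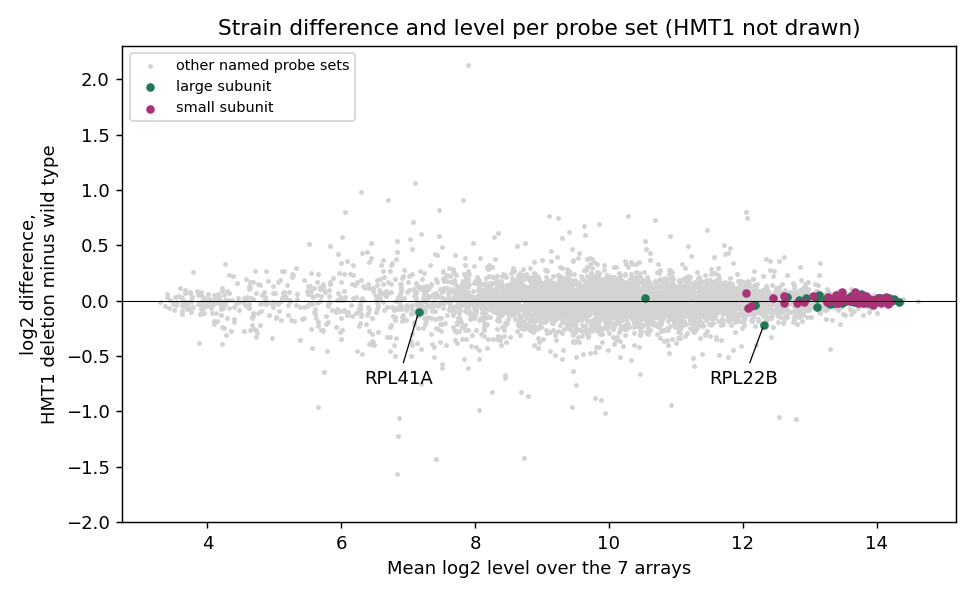
Strain difference (vertical axis, log2, deletion minus wild type) against mean log2 level over the 7 arrays (horizontal axis) for each named probe set, with large-subunit genes in green and small-subunit genes in purple; HMT1 is not drawn. The ribosomal protein probe sets lie close to 0 at the bright end, with RPL22B at -0.22 and the dim RPL41A at -0.10.

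With the brightest probe set of each gene, the 10 largest differences in each direction were these, none past the test. Higher in the deletion were RPS25A (0.082), RPS16A (0.079), RPL8B (0.057), RPL26B (0.053), RPS10A (0.050), RPL9A (0.044), RPL12B (0.041), RPL38 (0.040), RPS1A (0.039) and RPL39 (0.035). Lower were RPL22B (-0.22), RPL41A (-0.10), RPS9A (-0.065), RPL19A (-0.057), RPS10B (-0.045), RPS16B (-0.037), RPS21A (-0.028), RPL34A (-0.027), RPS22A (-0.025) and RPS18B (-0.024). The probe sets of RPL41A and RPS18B (suffix s) and of RPS16A, RPS10A and RPS10B (suffix x) may also match other transcripts. Their values may therefore not belong to the named gene alone. RPL41A was also dim, with a mean level of 7.16. With every array used, the groups overlapped in all of these 20 genes except RPL22B. The smallest limma adjusted p among the other 19 was 0.840. Without wild-type replicate 1, RPS25A, RPS16A, RPL8B, RPS10A, RPL12B and RPL38 also separated, with the deletion above. RPS9A and RPL19A separated without deletion replicate 2, RPS16B without wild-type replicate 3, and RPL19A and RPS21A without wild-type replicate 4. Over all named probe sets 11.8%, 15%, 19.7% and 10.2% separated, in the same order. Single arrays also set several of the differences. Without wild-type replicate 1, RPL41A was at 0.03, RPS9A at -0.021, RPS16A at 0.12, RPL8B at 0.091, RPL26B at 0.12, RPL9A at 0.093, RPL38 at 0.079, RPS1A at 0.13 and RPL39 at 0.082. Without deletion replicate 2, RPL26B was at -0.031, RPL9A at -0.018, RPS1A at -0.068, RPL39 at -0.063, RPS9A at -0.12 and RPS22A at -0.13.

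No gene of either subunit was called. The 82 large-subunit probe sets had a median difference of 0.0084, with 56 higher and 26 lower, and the 65 small-subunit probe sets a median of 0.0044, with 37 higher and 28 lower. Averaged over the large-subunit probe sets, wild-type arrays were at 13.53 ± 0.05 (SD, n = 4) and deletion arrays at 13.54 ± 0.04 (SD, n = 3). Averaged over the small-subunit probe sets they were at 13.62 ± 0.06 and 13.63 ± 0.04. These group differences were smaller than the spread between replicates of either strain. The 18 single-copy genes had a median of 0.011, with 16 higher (88.9%) and 2 lower. The share higher was 59.4% of A-paralog probe sets, 60% of B-paralog probe sets and 52.5% of all named probe sets. The median difference of the single-copy genes was below their median wild-type SD of 0.033. How far their count rested on single arrays was not tested. Differences of these genes lay between -0.0074 for RPS13 and 0.040 for RPL38.

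**Figure D2:**
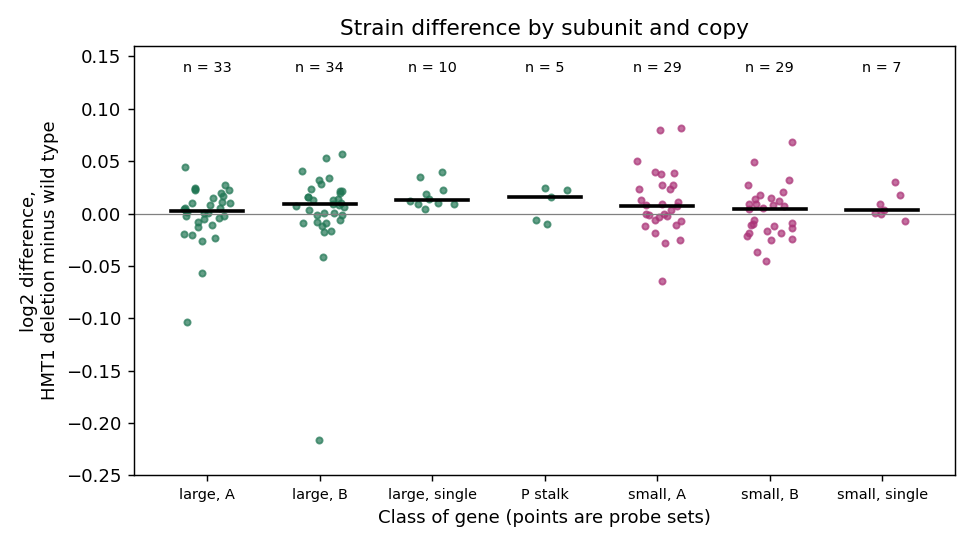
Strain difference (log2, deletion minus wild type) of each ribosomal protein probe set by subunit and copy, with the median of each class as a black bar and the number of probe sets above. All 7 medians lie near 0, and RPL22B at -0.22 and RPL41A at -0.10 are the points farthest below.

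Genes of the large subunit are described by the place of their product. Rpl3, Rpl2 and Rpl10 lie around the peptidyl transferase centre, where peptide bonds form. RPL3 read 14.06, 13.98, 13.998 and 14.03 in the wild type and 13.98, 14.06 and 14.07 in the deletion, a difference of 0.02 (SE 0.05, limma adjusted p = 0.924). RPL10 differed by 0.0047 (SE 0.048). The values of both strains overlapped for both genes. Proteins around the nascent peptide exit tunnel (RPL4A, RPL4B, RPL17A, RPL17B, RPL25, RPL26A, RPL26B, RPL31A, RPL31B, RPL35A and RPL39) ranged from -0.024 for RPL17A to 0.053 for RPL26B, with 7 of 11 higher. The 5S ribonucleoprotein genes RPL5, RPL11A and RPL11B, whose products are joined to the 5S RNA before they enter the ribosome, lay between -0.012 and 0.019. Among the 3 genes that encode a ribosomal protein fused to ubiquitin, RPS31, RPL40A and RPL40B, the differences were 0.030, 0.022 and 0.013.

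The P stalk recruits the elongation factors to the ribosome. RPP0, the base of the stalk, read 14.22, 14.16, 14.14 and 14.16 in the wild type and 14.19, 14.20 and 14.19 in the deletion, 0.02 higher (SE 0.05, limma adjusted p = 0.913). The deletion values lay within the wild-type range. RPP1A and RPP1B differed by -0.0099 and 0.022, and RPP2A and RPP2B by 0.016 and -0.0063. None of the 5 passed the test.

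In the small subunit, Rps2 and Rps3 line the mRNA entry channel. RPS2, whose product Hmt1 methylates, read 14.14, 14.06, 14.08 and 14.10 in the wild type and 14.12, 14.10 and 14.12 in the deletion. Its difference of 0.02 (SE 0.05, limma adjusted p = 0.941) had a 95% interval from -0.10 to 0.14. The deletion values fell inside the wild-type range, and the transcript of this Hmt1 substrate was thus not distinguishable between the strains at this precision. Genes whose products line the mRNA exit (RPS0, RPS1, RPS14, RPS26 and RPS28 pairs) ranged from -0.021 for RPS14B to 0.039 for RPS1A over 11 probe sets. Those of the decoding centre and the head (RPS15, RPS16, RPS18 and RPS23 genes) ranged from -0.037 for RPS16B to 0.079 for a probe set of RPS16A. RPS25A, which had the highest difference of all members, encodes a protein that viral internal ribosome entry needs. It read 13.67, 13.39, 13.33 and 13.39 in the wild type and 13.45, 13.61 and 13.52 in the deletion, a difference of 0.08 (SE 0.09, limma adjusted p = 0.856). Wild-type replicate 1 was the highest of the 7 values, and the groups overlapped. Without that array the difference was 0.16 and the groups did not overlap, and without wild-type replicate 3 or deletion replicate 2 it was 0.05 and 0.04.

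Other transcripts that encode methylated ribosomal proteins were compared next. Besides RPS2 and RPL3, the genes measured were RPS3, modified by Sfm1, RPL12A and RPL12B, modified by Rmt2 and Rkm2, RPL23A and RPL23B, modified by Rkm1, RPL42B, modified by Rkm3 and Rkm4, and RPL1B, modified by Rkm5. Differences of the 9 genes lay between -0.020 for RPL12A and 0.041 for RPL12B, with 6 higher and 3 lower and a smallest limma adjusted p of 0.872. Between these, RPL23B was at 0.034, RPL1B at 0.0097, RPS3 at 0.0093, RPL42B at -0.0059 and RPL23A at -0.013, all with overlapping groups. Of their 9 probe sets, those of RPL1B and RPL42B carry the suffix for a match to several transcripts, so their paralogs may share the signal.

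The paralog pairs were used to ask whether the strains differ in the balance of A and B copies. Both copies were measured by probe sets without a suffix in 49 of the 59 pairs that RefSeq lists. The level of A and the level of B come from different probes, so only the log2 ratio of A to B within an array is compared between strains. The strain difference of this ratio had a median size of 0.019 and was under 0.05 in 44 of 49 pairs. In 24 pairs A had the more positive difference and in 25 B. Both copies were higher in the deletion in 19 pairs, both lower in 9, and they went opposite ways in 21. In 43 pairs the SD of the ratio over the wild-type arrays was larger than the strain difference. A and B moved together over the 7 arrays with a median Pearson r of 0.589 (30 pairs over 0.5 and 10 under 0). The points of a pair share arrays and may share hybridising sequence. Shared sequence could hide a shift of the ratio, so these small values do not settle the balance of the copies.

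RPL22 was the pair with the largest ratio difference. Rpl22 is a protein of the 60S surface that cells can do without. RPL22B read 12.44, 12.62, 12.28 and 12.29 in wild-type replicates 1 to 4 and 12.21, 12.20 and 12.17 in deletion replicates 1 to 3. Every deletion array was below every wild-type array, and the wild-type arrays spread more widely than the deletion arrays. With an adjusted p of 0.742 in limma, the difference of -0.22 (SE 0.09, 95% interval -0.42 to -0.0071) missed the threshold. It was -0.14 without wild-type replicate 2, the highest array, and -0.13 with array weights. Against wild-type replicates 2 and 4 alone it was -0.26 and against 1 and 3 alone -0.17. Differences as low or lower were found in 6.20% of all named probe sets.

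The values of RPL22A overlapped between the strains, at 13.74, 13.69, 13.66 and 13.70 in the wild type against 13.69, 13.72 and 13.72 in the deletion, a difference of 0.01 (SE 0.05, limma adjusted p = 0.964). The log2 ratio of RPL22A to RPL22B was 1.29, 1.07, 1.39 and 1.41 on the wild-type arrays and 1.48, 1.52 and 1.54 on the deletion arrays, without overlap. The shift of 0.23 (SE 0.09 of an ordinary linear model, with no test) was 0.15 without wild-type replicate 2. RPL22B, RPL30, RPS14B, RPS9A and RPS28B are genes whose own protein limits their transcript, by binding its intron or its message. The other 4 differed by 0.010 for RPL30, -0.021 for RPS14B, -0.065 for RPS9A and -0.011 for RPS28B. The groups overlapped in each when every array was used.

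**Figure D3:**
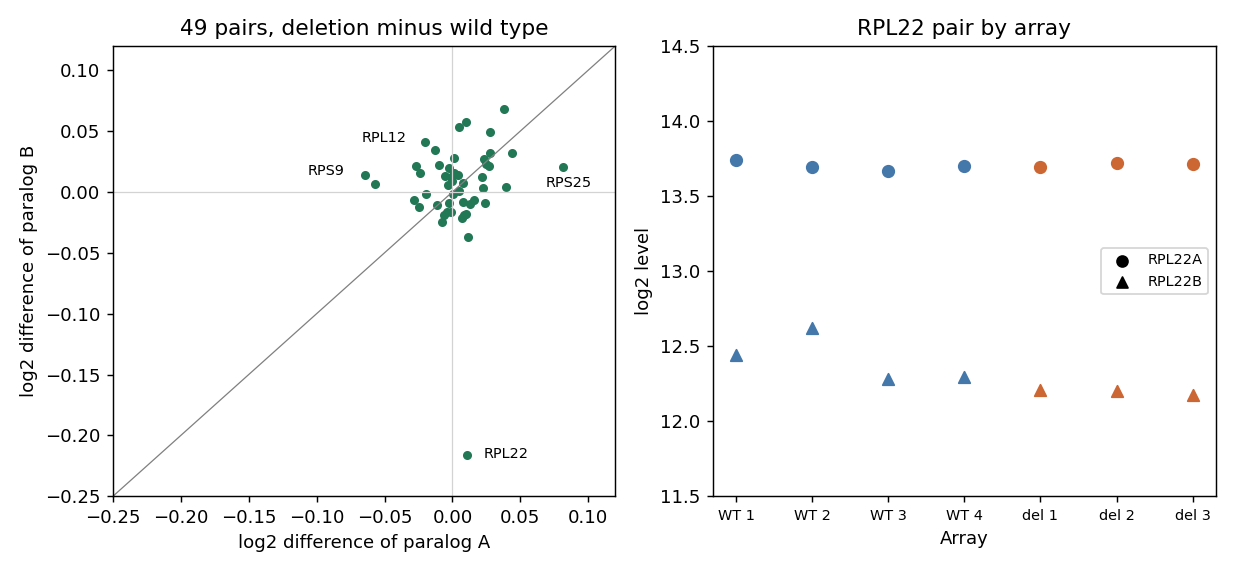
Left, strain difference (log2, deletion minus wild type) of paralog B against that of paralog A for the 49 pairs with probe sets without suffix, with the line of equal differences; right, log2 levels of RPL22A (circles) and RPL22B (triangles) on each array, wild type in blue and deletion in orange. RPL22 lies away from the other pairs with RPL22B at -0.22 and RPL22A at 0.01.

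The RPL12 pair was the other pair whose ratios did not overlap between strains, though the shift was small. Such separation was found in 2 of the 49 pairs, while 7.64% of all named probe sets separated singly. No share over ratios of other genes was computed. RPL12A read 13.58, 13.47, 13.43 and 13.47 in the wild type and 13.44, 13.49 and 13.47 in the deletion, and RPL12B read 13.70, 13.63, 13.62 and 13.61 and then 13.66, 13.71 and 13.68. The ratio of A to B was -0.13, -0.16, -0.19 and -0.14 on the wild-type arrays and -0.22, -0.22 and -0.21 on the deletion arrays, a shift of -0.061 (SE 0.017, not tested). Neither gene alone separated the strains. Among the remaining pairs with the largest shifts, RPS9 was at -0.078, RPL19 at -0.064, RPS25 at 0.061 and RPL34 at -0.048, all with overlapping groups when every array was used. Without wild-type replicate 1 the RPS25 shift was 0.12 and the RPL19 shift -0.087, both then without overlap, and the RPL34 shift was -0.088. Without deletion replicate 2 the RPS9 shift was -0.12 without overlap, and those of RPL19, RPS25 and RPL34 were -0.034, 0.017 and 0.030. The smallest shifts were those of RPL14 (0.0014), RPS27 (0.0010) and RPS28 (-0.00048). The ratio of RPL15A to RPL15B had wild-type and deletion means of 3.09 (SD 0.12) and 3.06 (SD 0.09), and that of RPS9A to RPS9B -1.69 (SD 0.06) and -1.77 (SD 0.07).

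A second probe set was present for 20 genes, as a view of how far probes of the same gene differ. Differences of the 2 probe sets lay within 0.05 of each other for 18 of them. RPS10B was the widest, with 0.068 for the probe set without a suffix and -0.045 for that with the suffix x, and RPS16A had 0.011 and 0.079. Rps10 is part of the beak of the 40S subunit. No sign can be given for RPS10B from these probe sets.

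Within each strain most of the genes were high or low on the same arrays. Wild-type replicate 1 alone was the highest of the 4 wild-type arrays in 112 of 147 probe sets (9 had ties), and replicate 3 the lowest in 91 (1 tie). Deletion replicate 2 was the highest of its group in 101 (2 ties), and deletion replicate 1 the lowest in 90 (14 ties). Set against each probe set's mean over all arrays, 134 members were above it in wild-type replicate 1, 17 in wild-type replicate 3 and 109 in deletion replicate 2. Over all 5498 named probe sets the counts for these 3 arrays were 2774, 3110 and 2539. Wild-type replicate 1 exceeded the mean of the other wild-type arrays by a median of 0.077 over the members and 0.0045 over all named probe sets, and the corresponding medians for deletion replicate 2 against the other deletion arrays were 0.046 and -0.017. For 122 members the excess of wild-type replicate 1 was larger than the strain difference.

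**Figure D4:**
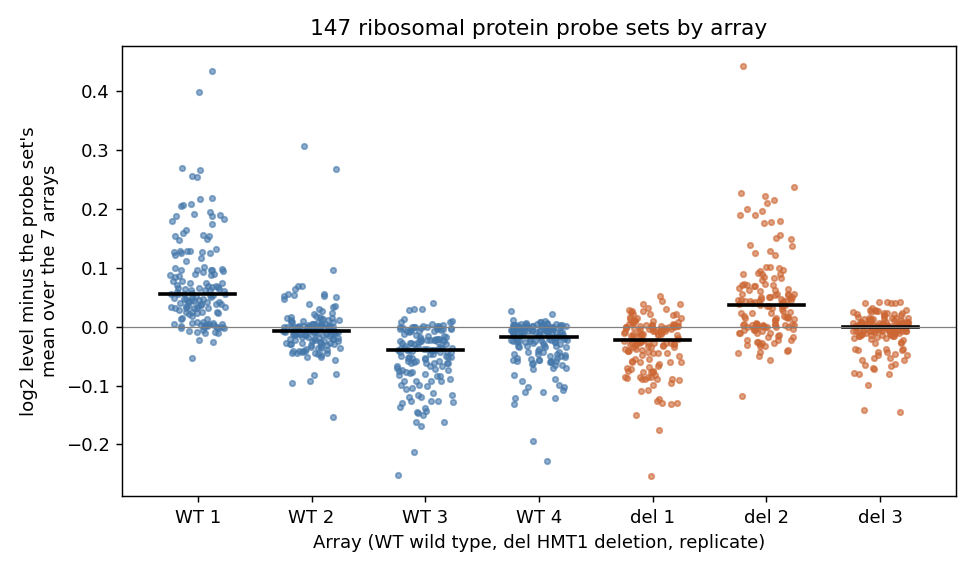
Log2 level of each of the 147 ribosomal protein probe sets minus its own mean over the 7 arrays, by array, wild type in blue and deletion in orange, with the median as a black bar. Wild-type replicate 1 (median 0.056) and deletion replicate 2 (0.036) stand above the other arrays, and wild-type replicate 3 (-0.039) is the lowest.

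Probe sets with a large excess on the first of these arrays tended to have it on the other. Across the 147 probe sets the excess of wild-type replicate 1 and that of deletion replicate 2 had a Pearson r of 0.815 and a Spearman rho of 0.818, a description over probe sets that share arrays and brightness. The excess was larger in dimmer probe sets, with medians of 0.23 and 0.16 for wild-type replicate 1 and deletion replicate 2 under a level of 13, and 0.036 and 0.016 at 14 and over. RPS19A, which encodes a protein of the 40S head, was at the far end. It read 12.85, 12.44, 12.23 and 12.22 in the wild type and 12.19, 12.89 and 12.31 in the deletion. Wild-type replicate 1 was 0.55 above the other wild-type arrays and deletion replicate 2 was 0.64 above the other deletion arrays, while the strain difference was 0.03 (SE 0.21, limma adjusted p = 0.981). RPS1A behaved alike, at 12.87 in wild-type replicate 1 against 12.47 to 12.54 in the other 3, and at 12.85 in deletion replicate 2 against 12.53 and 12.54. RPL41A, which encodes the smallest ribosomal protein and had the dimmest probe set (mean level 7.16), was 0.52 above in wild-type replicate 1 and 0.056 above in deletion replicate 2.

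**Figure D5:**
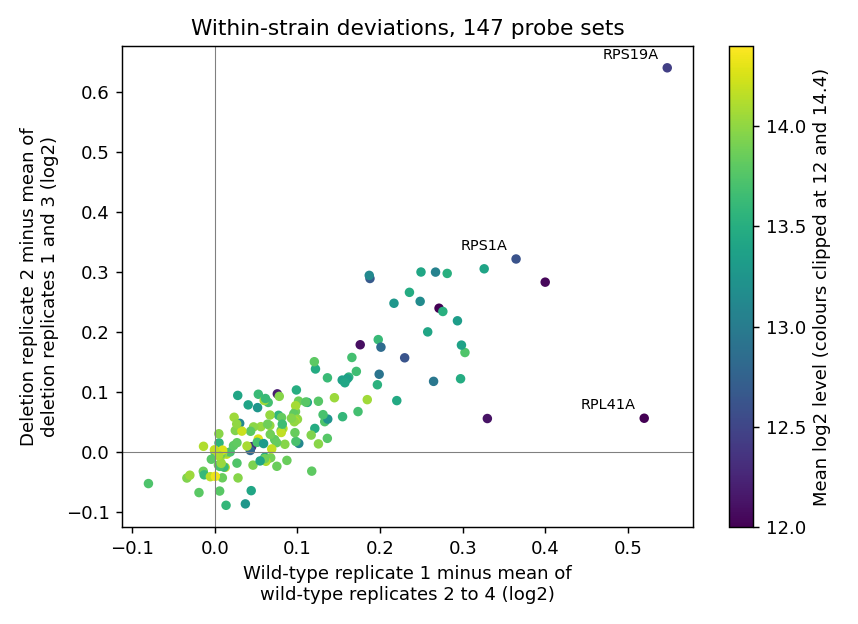
For each ribosomal protein probe set, the log2 excess of wild-type replicate 1 over the mean of the other wild-type arrays (horizontal axis) and of deletion replicate 2 over the mean of the other deletion arrays (vertical axis), coloured by mean log2 level. The points rise together (r = 0.815), the dimmer probe sets reach farther, and RPS19A is at 0.55 and 0.64.

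A stress list was set beside these arrays because stress lowers ribosomal protein transcripts. Its 26 genes had a median difference of 0.32, with 23 higher (88.5%, against 52.5% of all named probe sets) and 3 lower. The adjusted test called 0, against 0.2% of all. At an unadjusted limma p under 0.05 there were 5 (19.2%, against 6.64% of all). The groups separated in 2 (7.69%, against 7.64% of all), and the list was not tested as a set. The difference of the mean stress level was 0.33 with all arrays, 0.14 without wild-type replicate 1, 0.20 without deletion replicate 2 and 0.50 without deletion replicate 3. GSY1, a glycogen synthase, was at 0.77 (SE 0.24, limma adjusted p = 0.581). The mean stress level was 9.43, 9.84, 10.39 and 10.25 in wild-type replicates 1 to 4 and 10.39, 10.56 and 9.96 in deletion replicates 1 to 3. Mean ribosomal protein levels on the same arrays were 13.65, 13.57, 13.52 and 13.55 and then 13.54, 13.62 and 13.57. In the wild type the array with the lowest stress level had the highest ribosomal protein level, and the array with the highest had the lowest. In the deletion, replicate 2 was the highest in both. The part of stress state in the ribosomal protein values was not tested.

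No regulator of these genes passed the test. Among 20 regulators, 13 were higher (65%, against 52.5% of all named probe sets) and 7 lower, with a median of 0.022. The groups separated in 1 of the 20 (5%), against 7.64% of all named probe sets. GCR1, an activator of glycolytic genes that works with Rap1, read 10.76, 10.91, 10.64 and 10.61 in the wild type and 10.47, 10.58 and 10.54 in the deletion, without overlap, a difference of -0.20 (SE 0.08, limma adjusted p = 0.742). IFH1, the coactivator at ribosomal protein promoters, was at -0.24 (SE 0.11) and ABF1, a general regulatory factor, at 0.31 (SE 0.13), both with overlapping groups and the same adjusted p. In a list of 15 enzymes taken to modify ribosomal proteins, 11 were higher (73.3%, against the same 52.5%) and 4 lower (median 0.045). Whether each of them, HSL7 included, acts on ribosomal proteins was not checked. The 3 with the smallest p were HSL7 at 0.12, NAT1 at 0.17 and RKM4 at 0.10 (limma adjusted p = 0.742, 0.742 and 0.803). In each, all deletion arrays were above the wild type, which a choice by smallest p favours. This held for 3 of the 15 (20%), against 3.15% of all named probe sets, and the list was not tested as a set. NAT1 was at 0.12 without wild-type replicate 2, its lowest array. In 20 genes of ribosomal protein chaperones and escorts, 14 of 21 probe sets were higher (66.7%, against the same 52.5%), with a median of 0.0089. BTT1, a subunit of the nascent polypeptide-associated complex, was at 0.18, PUF6 at -0.12 and SQT1, the chaperone of Rpl10, at -0.08. Of 16 elongation and ribosome-bound factors, 15 were higher (93.8%, against 52.5% of all named probe sets), with a median of 0.023. Their mean difference was 0.013 with all arrays. It was -0.013 without wild-type replicate 2, -0.0040 without wild-type replicate 3 and -0.0038 without deletion replicate 3. Without each of the other arrays it was positive, from 0.015 to 0.048. CAM1 was at 0.10, SUP35 at 0.09 and ANB1, the hypoxic form of eIF5A, at -0.41. ANB1 was at -0.17 without wild-type replicate 1, where it read 11.12, and at -0.25 without deletion replicate 2. PUF6 was at -0.05 and SQT1 at -0.03 without wild-type replicate 1, both closer to 0 as well without deletion replicate 2, at -0.01 and -0.03. IFH1 was at -0.15 without deletion replicate 2. None of these passed the test in the main fit.

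Mitochondrial ribosomal protein genes, whose products form the ribosome of another compartment, were compared with the cytosolic set. Their 66 probe sets had a median difference of 0.017, with 42 higher (63.6%, against 52.5% of all named probe sets) and 24 lower. Of them 0 were called, against 0.2% of all, and 1 was at an unadjusted limma p under 0.05 (1.52%, against 6.64% of all). Unlike the cytosolic set they were not at the bright end, with a median level of 10.40. Their mean on wild-type replicate 1 was 10.30 against 10.25, 10.36 and 10.34 on the other wild-type arrays. That array was therefore not their highest. It was the highest wild-type array for the elongation and ribosome-bound factors, which have a median level of 13.54 and so lie nearer in brightness. Their mean was 12.87 there against 12.69, 12.72 and 12.79 on the other wild-type arrays, and their median deviation from the wild-type mean was 0.053, where the cytosolic ribosomal protein genes had 0.058. The excess on wild-type replicate 1 was thus shared with these factors. For deletion replicate 2 the answer depended on the statistic. The mean of the factors was 12.75 there against 12.78 and 12.81 on deletion replicates 1 and 3. Their median level was the highest there, at 13.63 against 13.53 and 13.59. Their median deviation from the wild-type mean was 0.014 there against 0.0070 and 0.043.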

How the data were processed

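Each of 4 wild-type and 3 deletion cultures gave RNA for 1 array; the labels call them biological replicates. The authors' deposited log2 values per probe set were made with RMA and affy 1.52.0, per the submitters' processing notes; on filters, probe set definition and genome build nothing was stated. RMA brings the arrays to nearly the same distribution, so a change in total messenger RNA cannot be seen. Columns were matched by sample label. Probe sets were named through GEO's platform annotation, with 12 symbols updated through the RefSeq R64 gene table: 5498 of 5900 had 1 gene, 0 had several and 402 had none. No coordinates or sequences are given, and promoter motifs were not analysed here.

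Each named probe set was compared by limma 3.58.1 in R 4.3.3 (lmFit, eBayes, two-sided, Benjamini-Hochberg over 5498, threshold 0.05). The number of arrays limits the precision. Intervals of 95% are those of the moderated fit. Paralog ratios used the probe set without suffix, a choice made after the data were seen, and have no test, because the members were chosen. The members, gene lists and tests were chosen with earlier results of these data known; the roles of the proteins were assigned afterwards. Named genes were HMT1, the 10 largest differences in each direction, the stalk and methylated genes, the 6 largest and 3 smallest pair shifts, and the 3 smallest p of each other list; others named serve their role, array spread or class. Alternatives were leaving out arrays, the wild-type pairs, rescaling, filters, a replicate block, variance models, array weights, probe set choices, a stricter threshold and an ordinary test. The procedure was tested on simulated data. Figures used matplotlib 3.10.9 in Python 3.11.15.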

Additional observations from a re-analysis of the deposited data

Results flagged for a closer look

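In 9 of 71 sets of wild-type values examined, 1 array was far from the other 3 by Dixon's criterion, where chance gives about 1 in 20. Wild-type replicate 1 was the high array for RPS22A (13.66), RPS25A (13.67), RPS1A (12.87) and RPL34A (13.36), and for the RPS25 ratio of A to B (0.25); it was the low array for the RPL19 ratio (-0.40). Wild-type replicate 4 was low for RPS21A (14.15). Outside the ribosomal proteins, wild-type replicate 2 was low for NAT1 (11.05), a subunit of an N-terminal acetyltransferase, and for MF(ALPHA)1 (3.95).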

How the results depend on the processing

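No ribosomal protein probe set was called in any of the 22 alternative fits of the test, and over 33 named members and their alternatives, 689 values in all, 0 were called. Of these values, 33 changed sign, in 16 members. Since no fit called any of them, they are counted here and not treated as reversals. Among named genes that are neither members nor HMT1, 1 value was called in an alternative fit and not in the main fit. The median difference over member probe sets ranged from -0.0076 to 0.024 when single arrays were left out and was 0.016 and -0.00196 against wild-type replicates 2 and 4 or 1 and 3, always within the spread between wild-type arrays. The number of members without overlap was 1, and ranged from 1 to 16 without single arrays. It was 20 against wild-type replicates 2 and 4 (35.8% of all named probe sets) and 7 against 1 and 3 (19.1%). After centring on the array median it was 3, after centring on non-members 2, and after repeated quantile normalization 2, against 8.58%, 8.68% and 8.84% of all named probe sets. The number of members with a positive difference ranged from 53 to 120 without single arrays. Over all named probe sets 11 were called. This became 59 with array weights, 3 leaving out wild-type replicate 3, 1 leaving out wild-type replicate 4 or each deletion replicate, 5 with probe sets averaged per gene, 4 without suffixed probe sets, 1 at a threshold of 0.01 and 1 by the ordinary test. It was 0 without dim probe sets, a filter that also removes HMT1 and 1 member, RPL41A. Replicate numbers did not pair the cultures: deviations of same-numbered arrays correlated at -0.035, 0.17 and -0.51. With the replicate block, 0 members were called, the median difference over member probe sets was 0.000737, and 1 probe set, HMT1, was called in all. Choosing the brighter probe set of each gene for the ratios was an alternative added after seeing the data. It could not change the RPL22 ratio, because neither RPL22 gene is among the 20 with a second probe set. A planned search for promoter motifs was not run, because no promoter sequences were used here. The cause of these shifts was not tested.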
